A study of Homo sapiens with 6 samples.

Results

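Krüppel-like factors (KLFs) are zinc finger transcription factors, and 10 of them were described here, *KLF3*, *KLF4*, *KLF5*, *KLF6*, *KLF9*, *KLF10*, *KLF11*, *KLF12*, *KLF13* and *KLF16*, out of 29744 genes in the expression table. They were taken by gene symbol, and all 10 had a row. RNA from LNCaP, an androgen-responsive cell line derived from a lymph node metastasis of prostate cancer, was sequenced after 4 h in culture with CDKI-73 or with its solvent, dimethyl sulfoxide (DMSO). CDKI-73 is an inhibitor of CDK9, a kinase that phosphorylates the tail of RNA polymerase II and promotes the elongation of transcripts. The treated group received 250 nM CDKI-73 and the vehicle group DMSO alone, with 3 biological replicates in each, so the comparison covers 1 cell line, 1 dose and 1 time. It asks which transcripts were lower or higher after a short exposure to CDKI-73. The authors report that the compound also acts on CDK1, CDK2 and CDK7 in kinase assays. The part of each kinase in the changes was not tested.

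All KLFs carry zinc fingers at the carboxyl end that bind GC-rich DNA such as GC boxes and CACCC boxes, and they differ in the amino-terminal part that recruits partners. KLF3 and KLF12 bind the corepressor CtBP, KLF4, KLF5 and KLF6 bind the acetyltransferases p300 and CBP, and KLF9, KLF10, KLF11, KLF13 and KLF16 bind the corepressor SIN3A. Several KLFs are encoded by immediate or early response genes with short-lived mRNAs and proteins, and in prostate epithelium KLF4, KLF5 and KLF6 are known for control of proliferation and differentiation.

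The stretches of DNA upstream of these genes were compared because KLF and SP proteins bind the same GC-rich letters that lie before many KLF genes. RefSeq promoter windows (GRCh38.p14) were matched for 8 of the 10 genes, and the 250 bases before the start site were searched on both strands. The 4 windows shown are those of *KLF5* and *KLF4*, the members with the lowest share of transcript left after CDKI-73, of *KLF13*, an intermediate member whose replicates lay close together, and of *KLF9*, the member with the highest level. Capitals mark the GC box, GGGCGG or its reverse complement CCGCCC, and each sequence runs 5′ to 3′ on the strand of the gene. The *KLF5* and *KLF4* windows lie inside the annotated gene spans, because longer annotated transcripts begin further upstream. The *KLF11* window begins after the canonical start, since its RefSeq start lies 279 bases further into the gene, and the *KLF6* window overlaps the untranslated region of another annotated transcript. Both are counted below but hold transcribed bases. The *KLF9* window lies inside the annotated locus of the divergent transcript *KLF9-DT* (chromosome 9, 70414190 to 70550493).
KLF5, chr13:73058755-73059004, plus strand: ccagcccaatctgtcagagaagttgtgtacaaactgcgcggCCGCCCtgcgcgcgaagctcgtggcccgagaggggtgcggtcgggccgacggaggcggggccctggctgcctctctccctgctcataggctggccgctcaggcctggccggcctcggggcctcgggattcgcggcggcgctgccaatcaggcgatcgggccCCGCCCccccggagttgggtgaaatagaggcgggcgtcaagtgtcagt
KLF4, chr9:107489770-107490019, minus strand: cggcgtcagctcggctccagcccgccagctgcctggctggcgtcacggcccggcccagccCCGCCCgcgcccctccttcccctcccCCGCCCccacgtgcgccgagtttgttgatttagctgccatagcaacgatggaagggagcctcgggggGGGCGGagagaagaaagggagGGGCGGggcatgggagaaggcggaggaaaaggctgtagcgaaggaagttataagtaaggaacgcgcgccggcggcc
KLF13, chr15:31326585-31326834, plus strand: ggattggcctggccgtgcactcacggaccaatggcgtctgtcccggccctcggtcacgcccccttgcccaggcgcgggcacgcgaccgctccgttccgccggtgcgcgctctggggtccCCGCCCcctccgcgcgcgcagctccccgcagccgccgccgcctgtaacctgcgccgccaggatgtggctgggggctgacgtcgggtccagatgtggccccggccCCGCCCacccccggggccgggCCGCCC
KLF9, chr9:70414658-70414907, minus strand: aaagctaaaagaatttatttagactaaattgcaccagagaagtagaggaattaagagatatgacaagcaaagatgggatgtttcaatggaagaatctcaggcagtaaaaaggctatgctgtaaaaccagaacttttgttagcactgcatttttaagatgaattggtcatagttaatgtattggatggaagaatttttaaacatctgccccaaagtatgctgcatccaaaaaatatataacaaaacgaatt

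A GC box was present in 7 of the 8 windows, against 42.6% of all 34788 promoter windows of the same length. *KLF16* held 7 GC boxes, *KLF4* and *KLF12* held 4 each, *KLF13* held 3, and *KLF5*, *KLF6* and *KLF11* held 2 each. *KLF9* held 0, and only 32.4% of its window was G or C, whereas the other windows ranged from 69.2% in *KLF4* to 86.4% in *KLF16*, and the median of all windows was 58.0%. No member window held the TATA box letters TATAAA, which occurred in 10.8% of all windows. The letters CACCC were present in 3 of the 8 (*KLF5*, *KLF12* and *KLF13*), against 54.7% of all windows. CCAAT occurred in 4 of the 8 (*KLF5*, *KLF6*, *KLF9* and *KLF13*), against 32.0%. TGACG, a part of the cyclic AMP response element, occurred in 4 of the 8 (*KLF4*, *KLF5*, *KLF13* and *KLF16*), against 21.2%. Neither the AP-1 letters TGACTCA, found in 4.2% of all windows, nor the CArG box of serum response factor, found in 1.2%, occurred in a member window. These matches describe letters in the windows, and binding was not measured.

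After CDKI-73, 9 of the 10 genes had a lower level than in vehicle, and the remaining gene, *KLF12*, was at the limit of detection in both groups. Levels are CPM, the reads on a gene scaled to the same library total in every sample, and a gene was tested where its mean over the 6 samples was at least 0.5 CPM. A call required that the adjusted p (limma, Benjamini-Hochberg) did not exceed 0.05 and that the groups differed at least 2-fold on the log2(CPM + 0.1) scale. By this rule 7 of the 9 tested members were called lower and 0 were called higher, against 22.3% and 1.11% of all 13373 tested genes. *KLF4* and *KLF5* were at least 8-fold lower, as were 2.53% of tested genes. *KLF4* was under that size with TMM (−2.97), median-of-ratios (−2.93) and upper quartile scaling (−2.86) and with a pseudocount of 1 CPM (−2.26). *KLF6* and *KLF10* passed the test with smaller changes and were not called. In each of the 9, all CDKI-73 samples were below all DMSO samples, which was the case for 50.0% of all tested genes. The lowest group mean among the 9 was 0.780 CPM (*KLF4* after CDKI-73), so each would also have passed the expression filter on its treated samples alone. Because these are bulk libraries, fewer cells with a transcript and less of it per cell cannot be told apart, and a lower CPM is a lower share of the reads rather than a count of molecules.

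**Figure D1:**
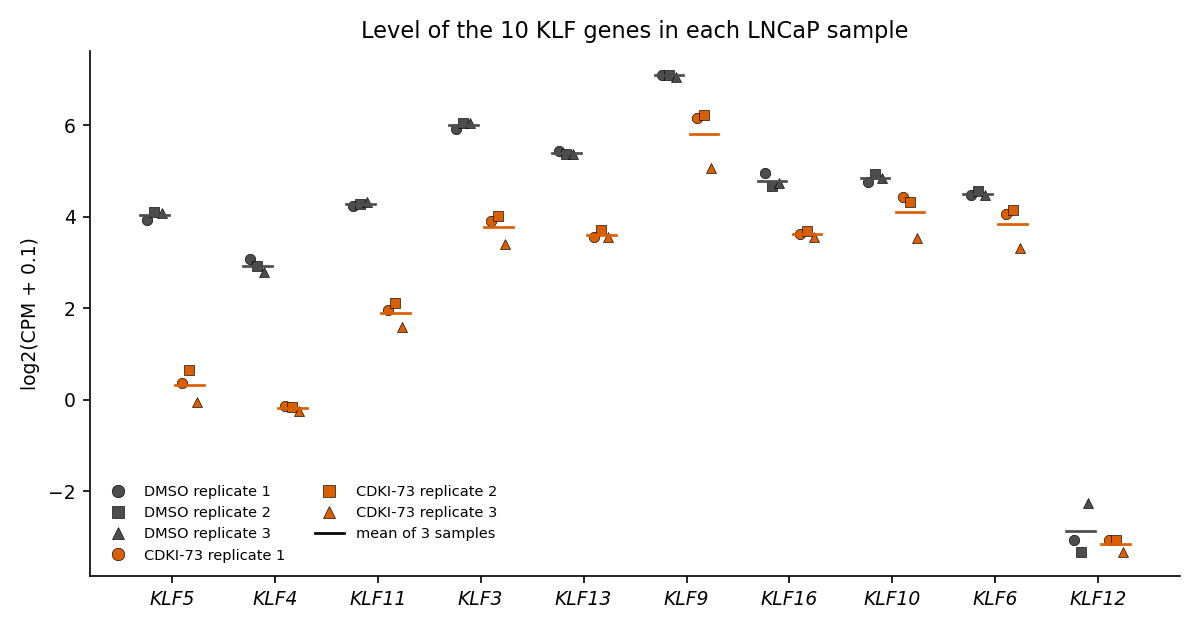
Level of each KLF gene as log2(CPM + 0.1) in the 3 DMSO samples (grey) and the 3 CDKI-73 samples (orange), with a bar at each group mean and a symbol for each replicate number. The treated samples lie below the vehicle samples for all genes except *KLF12*, which is at most 0.11 CPM in every sample.

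*KLF5*, a regulator of epithelial proliferation, had the largest fold change among the members. Its level was 15.15, 17 and 16.78 CPM in the DMSO samples and 1.19, 1.46 and 0.87 CPM in the CDKI-73 samples. All 3 treated samples were low, at 7.30%, 8.95% and 5.33% of the vehicle mean. *KLF5* fell by 3.71 on the log2 scale (SE 0.164, 95% interval −4.09 to −3.33, limma adjusted p = 2.6e-07), which is 13.1-fold lower (10.1 to 17.1). Only 0.890% of tested genes had a lower log2 fold change. The gene spans 22.6 kb of chromosome 13 (73054976 to 73077541, plus strand, GENCODE release 44 on hg38) with 4 exons in its canonical transcript.

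*KLF4*, a factor linked to epithelial cell cycle exit and to reprogramming to pluripotency, had the next largest fold change. It was measured at 8.31, 7.47 and 6.87 CPM with DMSO and at 0.81, 0.79 and 0.74 CPM with CDKI-73. The treated samples lay close together, at 10.7%, 10.5% and 9.80% of the vehicle mean. *KLF4* fell by 3.12 (SE 0.108, limma adjusted p = 9.0e-08), or 8.67-fold (7.30 to 10.3). The treated values rest on an inferred 42, 41 and 34 reads, so their counting error is not small. *KLF4* is a short gene of 5.6 kb on chromosome 9 (107484852 to 107490482, minus strand).

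*KLF6*, the third member that binds p300 and CBP, is described in the literature as a growth suppressor in prostate cells and changed least among the 9. Its level was 22.14, 23.36 and 22.22 CPM with DMSO and 16.61, 17.71 and 9.83 CPM with CDKI-73. Treated replicates 1 and 2 kept 73.6% and 78.5% of the vehicle mean, and replicate 3 was well below them at 43.5%. The log2 fold change was −0.66 (SE 0.197, 95% interval −1.11 to −0.21, limma adjusted p = 0.016), a fold difference of 1.58. Scaling the samples by the median of gene ratios gave an adjusted p of 0.053, and scaling by the upper quartile gave 0.097. *KLF6* lies on chromosome 10 (3775996 to 3785281, minus strand). Within this subgroup 3 of 3 genes passed the test in the lower direction and 2 were called, against 48.2% and 22.3% of all tested genes. The median log2 fold change was −3.12, against −0.18 over all tested genes.

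Among the CtBP-binding members, *KLF3*, a repressor that acts in erythroid, B cell and fat cell development, was the only one expressed at a level that could be tested. Its level was 60.68, 65.84 and 66.51 CPM with DMSO and 14.82, 16.02 and 10.52 CPM with CDKI-73. The groups were far apart, and treated replicate 3 was again the lowest. *KLF3* fell by 2.24 (SE 0.142, limma adjusted p = 1.9e-06), or 4.71-fold (3.75 to 5.91). *KLF12*, a repressor of *TFAP2A*, was at 0.02, 0 and 0.11 CPM with DMSO and at 0.02, 0.02 and 0 CPM with CDKI-73, which corresponds to an inferred 1, 0 and 6 against 1, 1 and 0 reads. Its groups overlapped, no fold change was computed, and a difference was not detectable at this depth. It is the longest of the 10 genes at 448.3 kb (chromosome 13, 73686089 to 74134404, minus strand), whereas *KLF3* spans 37.3 kb (chromosome 4, 38664197 to 38701517, plus strand).

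The SIN3A-binding members *KLF10* and *KLF11* are known as early genes of TGF-β signalling, and they differed in how much transcript was left. *KLF11* was at 18.78, 19.31 and 19.82 CPM with DMSO and at 3.77, 4.26 and 2.91 CPM with CDKI-73. It was low in every treated sample, at 15.1% to 22.1% of the vehicle mean, and fell by 2.39 (SE 0.129, limma adjusted p = 7.5e-07), or 5.24-fold. *KLF11* lies on chromosome 2 (10042849 to 10054836, plus strand). *KLF10* was at 26.85, 30.47 and 28.60 CPM with DMSO and at 21.53, 20.02 and 11.57 CPM with CDKI-73. Treated replicates 1 and 2 kept 75.2% and 69.9% of the vehicle mean and replicate 3 kept 40.4%. The log2 fold change of *KLF10* was −0.74 (SE 0.208, 95% interval −1.22 to −0.26, limma adjusted p = 0.012), and the adjusted p was 0.065 with upper quartile scaling.

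*KLF9*, induced by glucocorticoid and thyroid hormone in many tissues, had the highest level of the 10 genes in both groups. It was at 136.55, 137.53 and 133.18 CPM with DMSO and at 71.51, 75.12 and 33.16 CPM with CDKI-73. The vehicle samples were nearly equal, whereas treated replicate 3 was at 24.4% of the vehicle mean and replicates 1 and 2 were at 52.7% and 55.3%. *KLF9* fell by 1.27 (SE 0.273, 95% interval −1.90 to −0.64, limma adjusted p = 0.0031), or 2.41-fold (1.56 to 3.73). The gene lies at 70384604 to 70414657 on the minus strand of chromosome 9. Without CDKI-73 replicate 3 the log2 fold change was −0.89 and the fold was 1.85, below the 2-fold limit, with an adjusted p of 2.1e-09. The divergent transcript *KLF9-DT*, whose annotated locus overlaps *KLF9* on chromosome 9, was at 1.3, 1.10 and 1.12 CPM with DMSO and at 0.56, 0.52 and 0.56 CPM with CDKI-73, and its replicate 3 was not low. The libraries were stranded, but the strand setting of the counts is not given in the sources used here, and neither is how reads in the overlaps of *KLF9* with *KLF9-DT* and of *KLF3* with *KLF3-AS1* were assigned.

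*KLF13* and *KLF16* differed from the other SIN3A-binding members in that their 3 treated samples were nearly equal. *KLF13*, known as an activator of *CCL5* in T cells, was at 43.12, 40.98 and 41.49 CPM with DMSO and at 11.66, 13.05 and 11.65 CPM with CDKI-73. It fell by 1.78 (SE 0.0640, limma adjusted p = 1.0e-07), or 3.44-fold (3.10 to 3.81), the narrowest interval among the members on the log2 scale. The gene spans 108.8 kb of chromosome 15 (31326835 to 31435665, plus strand) and has 2 exons in its canonical transcript, as does *KLF16* on chromosome 19 (1852399 to 1863579, minus strand). *KLF16*, first described as a regulator of dopamine receptor genes, was at 30.97, 25.31 and 26.42 CPM with DMSO and at 12.22, 12.74 and 11.65 CPM with CDKI-73. The spread of *KLF16* lay mainly in the vehicle group, and it fell by 1.16 (SE 0.0851, limma adjusted p = 4.5e-06), or 2.24-fold. All 5 SIN3A-binding members passed the test in the lower direction and 4 were called, against the same 48.2% and 22.3%, with a median log2 fold change of −1.27 against −0.18. With median-of-ratios scaling *KLF16* was at −0.96, and with upper quartile scaling *KLF16* and *KLF9* were at −0.89 and −0.99, which no longer met the fold limit.

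**Figure D2:**
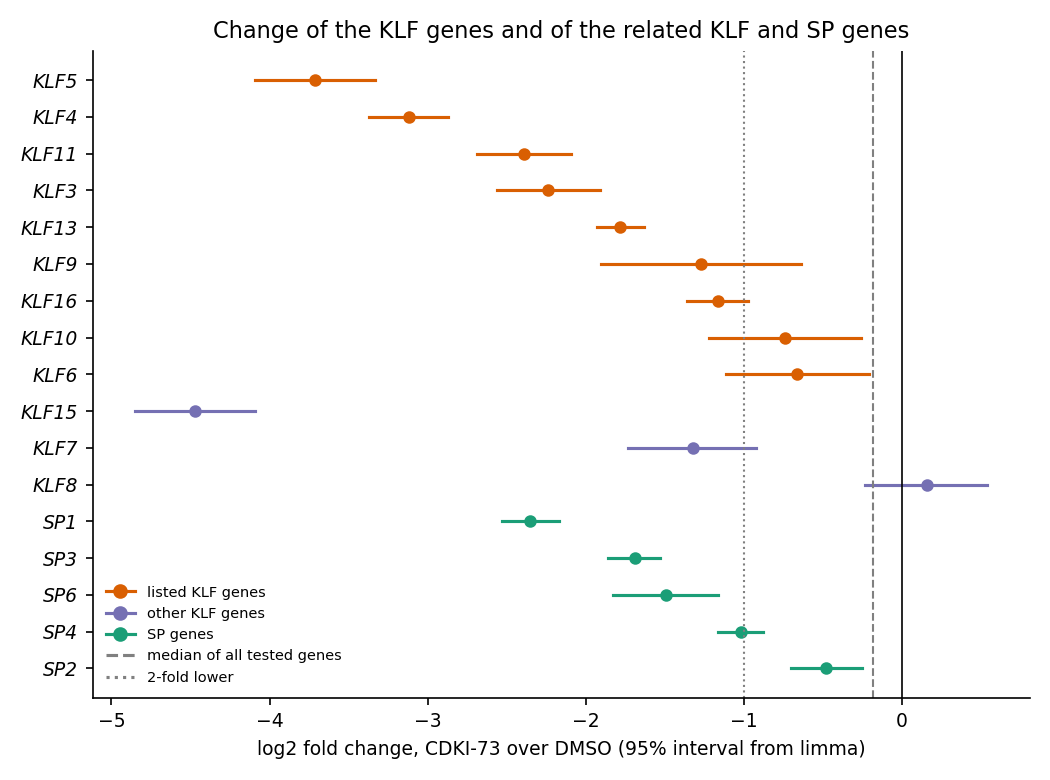
Log2 fold change of CDKI-73 over DMSO with the 95% interval from limma (bars) for the 9 tested KLF genes in orange, from −3.71 for *KLF5* to −0.66 for *KLF6*, and for related KLF and SP genes in purple and green, from −4.47 for *KLF15* to 0.16 for *KLF8*. A dashed line marks −0.18, the median over every tested gene, and a dotted line marks the 2-fold limit, which the points of *KLF6* and *KLF10* do not reach.

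Seen against all tested genes, the members spread over a wide part of the lower range. Apart from the 0.890% of genes below *KLF5*, 2.19% lay below *KLF4*, 5.33% below *KLF11*, 6.33% below *KLF3* and 10.1% below *KLF13*. At the other end, 17.2% of genes lay below *KLF9*, 19.2% below *KLF16*, 28.7% below *KLF10* and 30.9% below *KLF6*. The median log2 fold change of the 9 tested members was −1.78. Of all tested genes 48.2% passed the test in the lower and 24.2% in the higher direction, or 6441 and 3242 genes. That split depended on scaling, with 5550 and 4695 genes under TMM factors and 4904 and 5760 under the upper quartile.

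**Figure D3:**
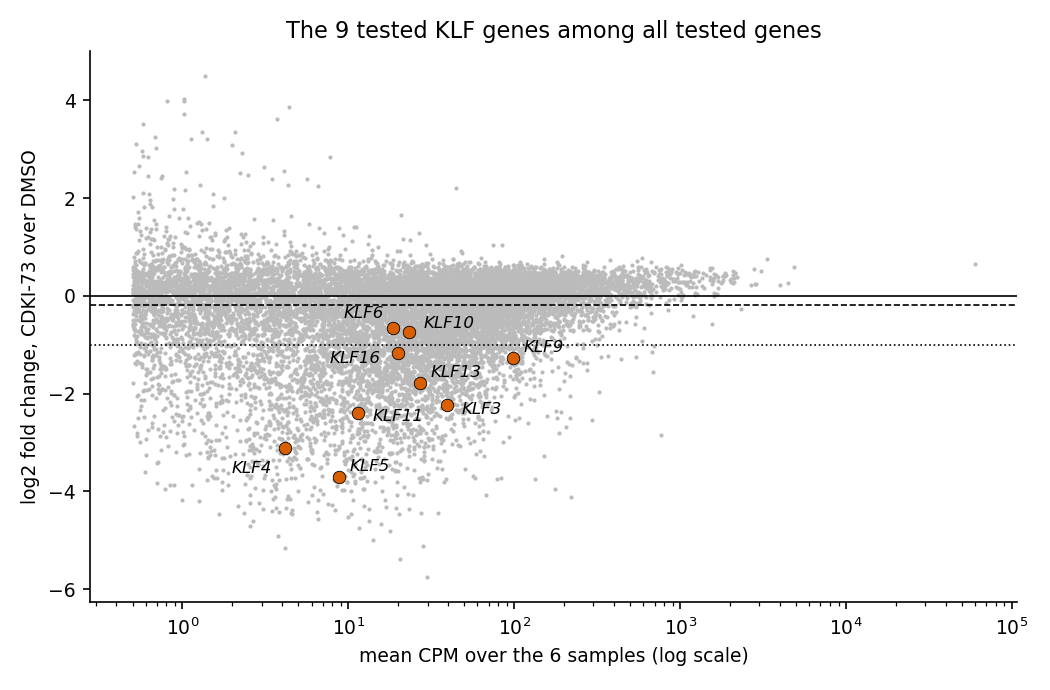
Log2 fold change of CDKI-73 over DMSO against mean CPM over the 6 samples (log scale) for all 13373 tested genes in grey, with the 9 tested KLF genes in orange. The members lie between −3.71 and −0.66, all below the dashed median of −0.18, and 7 lie below the dotted 2-fold line.

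The share of vehicle transcript left after CDKI-73 put the members in the order *KLF5* (7.19% on average), *KLF4* (10.3%), *KLF11* (18.9%), *KLF3* (21.4%), *KLF13* (29.0%), *KLF9* (44.1%), *KLF16* (44.3%), *KLF10* (61.8%) and *KLF6* (65.2%). Neighbours were compared by the difference of their log2 levels within each sample. For each step from *KLF5* up to *KLF13*, 4 of the 8 neighbouring pairs, this difference did not overlap between the CDKI-73 and the DMSO samples. For each of these an exact two-sided permutation test over samples gave p = 0.1, the smallest that 3 against 3 samples allow, and 0.2 after adjustment over the 8 pairs. For *KLF13* and *KLF9*, *KLF9* and *KLF16*, *KLF16* and *KLF10*, and *KLF10* and *KLF6* the differences overlapped, so these pairs were not separated beyond their spread. The shares left in single treated samples did overlap for *KLF11* (15.1% to 22.1%) and *KLF3* (16.3% to 24.9%), since both were lowest in replicate 3. Without CDKI-73 replicate 3, *KLF16* came before *KLF9*, and 7 of the 8 pairs did not overlap.

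**Figure D4:**
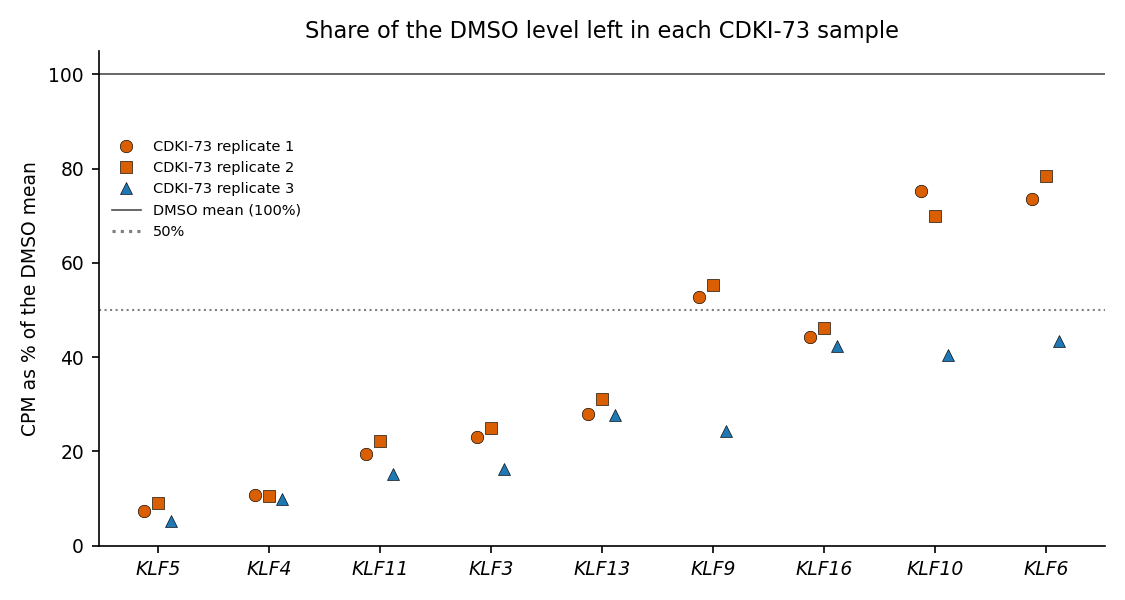
Percent of the mean DMSO level left in each of the 3 CDKI-73 samples for the 9 tested KLF genes, in order of their mean, with a symbol for each replicate and lines at 100% and 50%. Replicate 3 is the lowest sample for every member and lies furthest below the others in *KLF9* (24.4%), *KLF10* (40.4%) and *KLF6* (43.5%).

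CDKI-73 replicate 3 was lower than the mean of replicates 1 and 2 for all 9 tested members, by 1.14 on the log2 scale in *KLF9*, 0.84 in *KLF10*, 0.80 in *KLF6*, 0.55 in *KLF3* and *KLF5*, and 0.45 in *KLF11*. In *KLF4*, *KLF13* and *KLF16* it was lower by at most 0.10. Over all tested genes the median of this difference was −0.02, and the range from the 5th to the 95th percentile was −0.52 to 0.36, so *KLF9*, *KLF10*, *KLF6*, *KLF3* and *KLF5* lay outside it. Over the 2986 genes called lower the same range was −0.95 to 0.32 around a median of −0.14, and of the members only *KLF9* lay outside it. Replicate 3 had the smallest library, with an inferred 46.1 M counted reads against 52.0 and 51.9 M, and the part of depth in this difference was not tested. Without it, *KLF3*, *KLF4*, *KLF5*, *KLF11*, *KLF13* and *KLF16* were still called lower, with log2 fold changes of −2.05, −3.08, −3.53, −2.24, −1.75 and −1.13. *KLF6* and *KLF10* were then at −0.39 and −0.46, with limma adjusted p of 7.3e-05 and 4.5e-05.

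Levels of different genes were compared per kb of canonical transcript. In vehicle *KLF9* was at 26.1 ± 0.439 CPM per kb (SD, n = 3), followed by *KLF3* at 11.5 ± 0.570, *KLF10* at 9.83 ± 0.621, *KLF16* at 9.50 ± 1.03 and *KLF13* at 6.12 ± 0.163. Lower levels per kb were those of *KLF6* (4.92 ± 0.149), *KLF5* (4.87 ± 0.302), *KLF11* (4.78 ± 0.129) and *KLF4* (2.57 ± 0.246). Neighbours whose vehicle samples overlapped were *KLF10* and *KLF16*, *KLF6* and *KLF5*, and *KLF5* and *KLF11*. After CDKI-73 the order was *KLF9* (11.5 ± 4.47), *KLF10* (6.07 ± 1.84), *KLF16* (4.21 ± 0.188), *KLF6* (3.21 ± 0.930), *KLF3* (2.46 ± 0.517), *KLF13* (1.77 ± 0.118), *KLF11* (0.904 ± 0.169), *KLF5* (0.350 ± 0.0882) and *KLF4* (0.266 ± 0.0123). In that group *KLF9* and *KLF10*, *KLF10* and *KLF16*, *KLF6* and *KLF3*, *KLF3* and *KLF13*, and *KLF5* and *KLF4* overlapped.

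Summed over the 10 genes, the level was 80.1, 80.9 and 79.6 CPM per kb with DMSO and 34.9, 36.1 and 21.3 CPM per kb with CDKI-73. The make-up of this sum also differed between the groups. *KLF10* made up 11.5%, 12.9% and 12.3% of it with DMSO and 21.2%, 19.0% and 18.6% with CDKI-73. *KLF3* went the other way, from 13.5%, 14.6% and 14.9% to 7.59%, 7.93% and 8.82%, and *KLF5* from 5.65%, 6.28% and 6.30% to 1.02%, 1.21% and 1.22%. For these 3 genes the shares of the groups did not overlap. The same held for *KLF6*, at 6.02% to 6.29% with DMSO and 10.0% to 10.7% with CDKI-73. It also held for *KLF4* and *KLF11*, whose shares were lower with CDKI-73. The shares of *KLF13* and *KLF16* overlapped. The share of *KLF9* was 32.2% to 32.8% with DMSO and 29.9% to 40.0% with CDKI-73, so its groups overlapped. The shares add up to a whole and are not independent of each other.

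**Figure D5:**
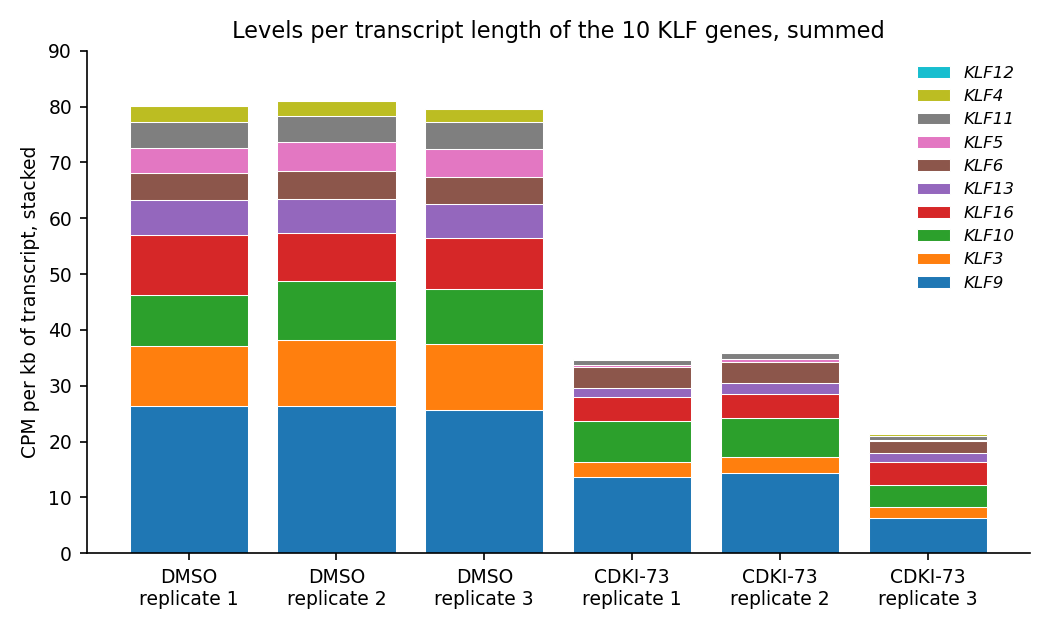
Summed level of the 10 KLF genes in CPM per kb of canonical transcript in each of the 6 samples, with each bar divided by gene and starting at 0. The DMSO bars reach 79.6 to 80.9, the CDKI-73 bars 21.3 to 36.1, and the segment of *KLF9* is the largest in every bar.

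The gene outside the set with the most similar profile was found for each tested member as the smallest root mean square difference of centred log2 values over the 6 samples. *HJURP*, a centromere histone chaperone, was nearest to *KLF5* (0.0587), and its own log2 fold change was −3.70. *SPRED1*, an inhibitor of RAS signalling, was nearest to *KLF11* (0.0321), *NUPL2* to *KLF13* (0.0321) and *ZNF430* to *KLF3* (0.0362). The other nearest genes were *C5orf54* for *KLF4* (0.0567), *P2RY11* for *KLF6* (0.05), *ZNF850* for *KLF9* (0.0597), *C16orf91* for *KLF10* (0.0826) and *LINC01003* for *KLF16* (0.0482). Among the members, *KLF6* and *KLF10* were closest to each other (0.0875). Both combine a modest fold change with a low replicate 3, and 4 genes outside the set were nearer to *KLF6* than *KLF10* was.

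Other KLF genes in the table were examined in the same way. *KLF15*, a glucocorticoid-induced regulator of metabolism, was at 19.27, 20.34 and 20.44 CPM with DMSO and at 0.89, 1 and 0.59 CPM with CDKI-73. It thus fell further than any of the 9 tested members, by 4.47 (SE 0.165, limma adjusted p = 1.1e-07) or 22.1-fold, and 0.105% of tested genes had a lower log2 fold change. *KLF7*, a factor of neuronal development, was at 1.21, 1.27 and 1.29 CPM with DMSO and at 0.58, 0.42 and 0.35 CPM with CDKI-73, a fall of 1.32 (SE 0.177, limma adjusted p = 2.0e-04). *KLF8*, a CtBP-binding factor, was at 0.79, 0.95 and 0.87 CPM with DMSO and at 1.15, 1.04 and 0.78 CPM with CDKI-73. These groups overlapped, with a log2 difference of 0.16 (95% interval −0.23 to 0.54, limma adjusted p = 0.42). *KLF2* was under the expression filter, at 0.84, 0.75 and 0.83 CPM with DMSO and at 0.02, 0.04 and 0 CPM with CDKI-73, and *KLF1*, *KLF14* and *KLF17* were at most at 0.1 CPM. Of this list 3 genes were tested and 2 were called lower, against 22.3% of all tested genes. *KLF7*, 1 of these 2, had a mean of 0.45 CPM with CDKI-73, under the filter of 0.5 CPM. It was tested only because of its DMSO values (mean 1.26 CPM). *KLF2* missed the filter because its treated values lowered its mean, and with no filter 3 genes were called.

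The SP factors share the zinc finger type and GC box preference of the KLFs. Of 9 genes listed, 5 were tested, all 5 passed in the lower direction and 4 were called, against 48.2% and 22.3% of all tested genes, with a median log2 fold change of −1.49. *SP1*, the broadly expressed founder, fell by 2.35 (SE 0.0784, limma adjusted p = 7.6e-08), *SP3* by 1.69 (2.0e-07), *SP6* by 1.49 (2.7e-05) and *SP4* by 1.02 (1.3e-06). *SP4* lost its call with TMM, median-of-ratios and upper quartile scaling, reaching −0.74, and with a pseudocount of 1 CPM 3 SP genes were called as well. With no filter on the mean, 6 SP genes were called. Per kb of transcript *SP1* was at 11 CPM with DMSO and 2.14 with CDKI-73, close to the levels of *KLF3*.

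Transcripts of the partners and of proteins that act on KLF turnover, not all of which degrade KLFs, were counted in the same way. Of 13 cofactor genes, 7 passed in the lower and 3 in the higher direction, 3 were called lower, and the median was −0.23. These counts are near the shares over all tested genes (48.2%, 24.2% and 22.3%) and the median near −0.18, so the list did not stand apart. *SIN3A* encodes the corepressor bound by KLF9, KLF10, KLF11, KLF13 and KLF16. Its level was 88.87, 97.64 and 103.0 CPM with DMSO and 13.34, 12.28 and 10.13 CPM with CDKI-73, a fall of 3.01 (limma adjusted p = 8.8e-08). The acetyltransferase genes *CREBBP* and *EP300* were at −2.13 and −1.99 (adjusted p = 2.7e-07 and 8.6e-06), and *CTBP2* was at −0.84 (4.1e-07). *HDAC1*, *HDAC2* and *KAT2B* were the 3 in the higher direction, at 0.39, 0.11 and 0.29. All 3 were below 0 under 1 of the 4 other scalings, that by reference genes, and their highest values were 0.66, 0.38 and 0.57. Of 9 genes for ubiquitin ligases and related enzymes that act on KLF proteins, all 9 passed in the lower direction, against 48.2%, and 3 were called, against 22.3%, with a median of −0.77. The called genes were the ligase genes *FBXO32* (−2.92, adjusted p = 6.1e-06), *SIAH1* (−2.51, 1.2e-06) and *FBXW7* (−1.12, 2.5e-06), and *BTRC* passed without a call (−0.84, 5.8e-06). *FBXW7* lost its call with TMM, median-of-ratios and upper quartile scaling, reaching −0.84 with the last, which left 2 called.

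Of 26 genes that the literature names as KLF targets, 21 were tested, 16 passed in the lower and 2 in the higher direction, 8 were called lower, and the median was −0.66, against 48.2%, 24.2%, 22.3% and −0.18 for all tested genes. *SMAD7*, an inhibitor of TGF-β signalling that KLF10 and KLF11 are known to act on, fell by 2.78 (limma adjusted p = 8.2e-07). *CDKN1B*, which encodes the cell cycle inhibitor p27, fell by 2.65 (1.6e-04), with treated samples at 22.42, 23.51 and 8.42 CPM, so its replicate 3 was low as well. *TFAP2A*, which encodes the transcription factor AP-2α, fell by 2.29 (2.2e-07). The 2 in the higher direction were *CDH1* and *KRT19*, at 0.31 and 0.23. Both were below 0 under 1 of the 4 other scalings, that by reference genes, and their highest values were 0.58 and 0.51. These counts describe transcripts only, and no KLF protein or binding was measured.

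The libraries had the profile of luminal prostate cells. All 10 luminal markers were expressed, with gene means of 205.0 to 2826.5 CPM and sums of 7800.0 to 8193.8 CPM with DMSO and 6605.4 to 6828.1 CPM with CDKI-73. Basal markers summed to 0.54 to 1.21 CPM with DMSO and 1.14 to 1.39 with CDKI-73, with 3 of 4 below 1 CPM. Stromal markers summed to 11.9 to 12.7 and 16.9 to 19.0 CPM, with 3 of 5 below 1 CPM (1 at 0). Immune markers summed to 4.89 to 5.66 and 6.36 to 7.41 CPM, with 4 of 5 below 1 CPM (1 at 0). Endothelial markers summed to 10.0 to 10.1 and 10.0 to 11.9 CPM, with 2 of 3 below 1 CPM. Most of each of these 3 sums was 1 gene, *COL1A1* (mean over the 6 samples 11.8 CPM), *CD68* (5.88) and *VWF* (10.6). The part of the markers in the KLF differences was not tested. Inferred depth was 52.9 to 60.9 M counted reads with DMSO and 46.1 to 52.0 M with CDKI-73, and 1 read was worth 0.0164 to 0.0217 CPM.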

How the data were processed

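PolyA+ RNA of LNCaP cells was sequenced, 3 samples with CDKI-73 and 3 with DMSO, grouped by the treatment label (the vehicle titles also name the compound). The authors deposited CPM (reads scaled to a common library total, not counts): single-end reads of stranded libraries were mapped to hg38 with STAR, which also counted them per gene, and the submitters' notes name FastQC, R 3.2.3 and edgeR 3.3. Which strand column was used is not stated. All but the highest values lie, within their rounding, on steps of 1 read (100% of them, against 46.8% to 62.7% of arbitrary values), from which depth was inferred. Reads inferred in this way were not used for a count test.

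Log2(CPM + 0.1) of the 13373 genes with a mean of at least 0.5 CPM was fitted with limma 3.58.1 (R 4.3.3, trend), with Benjamini-Hochberg adjustment over all of them. Fold changes of low genes are understated by the pseudocount. Replicates are described as biological. The fit was tested on simulated data in which few genes changed, in both directions, with the same dispersion in all samples. That setting lacks the shift towards lower calls and the deviating CDKI-73 replicate 3 of these data, so it does not cover them. Orders were compared by exact permutation, over 8 pairs rather than the 9 planned because *KLF12* was not tested. Loci and transcript lengths came from GENCODE release 44 (hg38) and promoters from RefSeq; tables were made in Python 3.11.15.

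Genes named were the members, all other KLF symbols, up to 4 genes per list with the largest change among those that passed, the nearest profile per member, and marker and reference genes (1 gene that this rule names is not reported here); the remaining named genes, *HDAC1*, *HDAC2*, *KAT2B*, *CDH1*, *KRT19* and *KLF9-DT*, were chosen after their values were seen. The members and lists were chosen with earlier results of these data known. Alternatives were other pseudocounts, filters, scalings, limma settings, a replicate block and leaving out each sample.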

Additional observations from a re-analysis of the deposited data

How the results depend on the processing

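Of 153 member log2 fold changes under other settings, all 153 were below 0; 147 kept their side of the calling rule, 4 lost the call and 2 gained it. *KLF16* lost it with median-of-ratios (−0.96) and upper quartile scaling (−0.89), and *KLF9* with upper quartile scaling (−0.99) and without CDKI-73 replicate 3 (range −1.48 to −0.89 over samples left out). *KLF6* and *KLF10* gained it with reference gene scaling (−1.06 and −1.15), which also turned *KLF8* to −0.21 and raised called cofactors to 6 and turnover genes to 7, each from 3. Members called numbered 6 with median-of-ratios and 5 with upper quartile scaling, 9 with reference genes, and 5 with limma's treat against 2-fold. Of 13373 tested genes, 2492, 2296, 4377 and 2265 were called lower under the same settings, against 2986. The median of all tested genes was −0.03 with TMM factors, 0.02 with median of ratios, 0.09 with the upper quartile and −0.58 with reference genes, against −0.18. The genes that passed split into 5279 lower and 5122 higher with median of ratios and 9882 and 395 with reference genes. Genes called higher, 148, became 52 with a pseudocount of 1 CPM, 377 with no filter, 52 with a filter at 2 CPM, 229, 279 and 79 with median-of-ratios, upper quartile and reference gene scaling, and 60 with treat. Other KLF genes called fell from 2 to 1 with the pseudocount of 1 CPM and with the 2 CPM filter, which leaves *KLF7* untested. Pairs in the order that did not overlap became 2 with the pseudocount of 1 CPM and 7 without CDKI-73 replicate 3, an alternative added after the data were seen. Apart from the filter, the cause was not tested.

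Each gene was centred on its group mean, and the deviations of CDKI-73 and DMSO samples were correlated. Same-numbered samples gave −0.29, 0.11 and −0.23, and the other pairs gave −0.22 to 0.34. Deviations from a mean of 3 samples cannot show whether the replicates were paired in the experiment. With a replicate block, 2986 genes were called lower and 148 higher, 7 members among the former, the numbers found without the block. Depth limits *KLF12* and the treated values of *KLF4* and *KLF5*.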

Other observations

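*KLF11-DT*, annotated beside *KLF11* on chromosome 2, was at 0.67, 0.68 and 0.51 CPM with DMSO and at 0.48, 0.64 and 0.50 CPM with CDKI-73, and its groups overlapped (log2 difference −0.17, 95% interval −0.58 to 0.24, limma adjusted p = 0.41). *GAPDH*, *ACTB* and *HPRT1*, used as reference genes, were higher with CDKI-73 in the CPM values, at 0.55, 0.36 and 0.32 on the log2 scale. Scaling by these 3 genes together sets their average change near 0 by construction, and left them at 0.14, −0.05 and −0.09.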
